A study of Mus musculus with 37 samples.

Results

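The 31 genes described here make the 3′ ends of transcripts: 20 cleavage and polyadenylation genes and 11 genes of the Integrator complex. They were chosen by symbol, and all 31 were found among the 54752 genes of the deposited gene table, spike-ins left aside. The study sequenced 37 single oocytes from C57BL/6 females aged 6 to 8 weeks, with the Smart-seq2 protocol, which keeps no strand information. Batch A held 6 oocytes at the germinal vesicle stage (GV, arrested in meiotic prophase) and 6 at metaphase II (MII), and batch B held 10 GV oocytes and 15 at metaphase I (MI). GV oocytes were taken from the ovary 48 h after PMSG, MII oocytes from the oviduct 15 h after hCG, and MI oocytes were GV oocytes cultured for 8 h. GV was the only stage present in both batches, so each later stage was compared with the GV oocytes of its own batch. The labels name no females, so the p-values below measure only the spread between oocytes, some of which may share an animal.

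Most messenger RNAs end where the CPSF complex recognises a polyadenylation signal and its endonuclease cleaves the nascent RNA, with the CstF, CFIm and CFIIm complexes binding nearby and a poly(A) polymerase adding the tail. Integrator carries a related endonuclease and cleaves small nuclear RNAs and the early transcripts of many other genes. In the fully grown oocyte transcription is silent, and maturation runs on stored messenger RNAs whose tails are lengthened or removed in the cytoplasm.

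Batch A held 7509875 to 13988444 expected counts per oocyte, and batch B 2709280 to 19390128, the lowest being MI oocyte 15. Levels are given on a counts-per-million scale of the library size (CPM), and the 31 genes together drew 2946 to 29603 of the expected counts in an oocyte. Every member had at least 1 count in each oocyte of batch A, whereas in batch B up to 3 members were at 0 in an oocyte, again MI oocyte 15, where 3 counts would equal 1.65 CPM. All 12 oocyte markers examined, Zp1, Zp2, Zp3, Gdf9 and Bmp15 among them, had counts in every oocyte, and Gdf9 was the most abundant with group means of 1714 to 2823 CPM. Of 12 cumulus and granulosa markers a median of 6 per oocyte were at 0, and the summed CPM of the list was 22.1 to 35.8 at GV and 20.5 to 33.5 at MII in batch A, most of it from Cyp19a1. In batch B that sum was 18.3 to 45.7 at GV and 14.1 to 27.2 at MI. Of 8 blood and immune markers a median of 6 per oocyte were at 0, and the most abundant was Hbb-bs.

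A few libraries stood apart. MII oocyte 1 of batch A had a blood-marker sum of 16.7 CPM, against at most 0.694 in the other 11 oocytes of the batch, and 29518 genes with a count, against 19273 to 22244 in the other MII oocytes. In MI oocytes 4, 8 and 9 the gene counts of HTSeq were 1.07 to 1.13 times those of RSEM, against 1.99 to 2.12 times in the other MI oocytes. Ribosomal RNA features took 9.09% to 22.1% of the counts at GV and 16.6% to 31.3% at MII in batch A. The GV to MII tests and the test of the difference were also run without MII oocyte 1, and the GV to MI gene test, but no transcript test or test of the difference, without MI oocytes 4, 8 and 9 or without MI oocyte 15.

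On a scale that also divides by transcript length (TPM), the 31 genes spanned a wide range of levels in the GV oocytes of batch A. Fip1l1, a CPSF subunit that binds U-rich RNA, had the highest median at 422 TPM (215 to 445). Ints9 followed with a median of 142 TPM (125 to 160), and Papola, the main nuclear poly(A) polymerase, with 118 TPM (108 to 142). Fip1l1 was above both in every GV oocyte of that batch, while Ints9 and Papola overlapped. At the other end lay Ints7 with a median of 1.00 TPM (0.379 to 1.41), Cpsf7 with 1.64 TPM (0.426 to 2.22) and Clp1 with 2.01 TPM (0.443 to 7.50), which do not differ beyond their spread. The summed level of all 31 genes overlapped between the groups, at 1036 to 1406 TPM (GV) and 830 to 1351 TPM (MII) in batch A, and 772 to 1570 TPM (GV) and 955 to 1813 TPM (MI) in batch B. GV oocytes of the 2 batches differed for some members. Pabpn1, the nuclear poly(A)-binding protein, had a median of 34.4 TPM in batch A and 163 TPM in batch B, and Ints9 one of 142 TPM in batch A and 44.5 TPM in batch B, neither with any overlap. Batch and collection cannot be told apart there, so no stage is compared across batches. Pabpn1 shares 651 exon bases with Gm20521 on the same strand, so its counts are less certain.

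Which 3′ end genes changed in relative level between prophase arrest and MII was asked in batch A, with edgeR's quasi-likelihood test over 12929 genes and Benjamini-Hochberg adjustment, a gene passing at an adjusted p under 0.05. Cpsf2 and Sympk were higher at MII, 2 of the 31 members, where 9.06% of all genes tested were higher. Ints9, Cpsf3, Papolg, Ints4, Cpsf4 and Ints12 were lower, 6 of the 31, where 11.5% of all genes were lower. The count of higher members lies below its background share and the count of lower members above it, and these differences were not tested. At an unadjusted p under 0.05 there were 13 members, beside 4441 of all 12929 genes. Sympk (higher) and Ints9 (lower) also passed a fold change over 2, a rule that 8.47% of all genes met. In Ints9, Cpsf3 and Papolg, all lower, the 6 MII and the 6 GV oocytes did not overlap, which held for 9.79% of all genes.

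The median log2 fold change of the members was 0.02 and that of all genes tested 0.01, with members between −1.67 and 1.02, whereas with scaling on the ERCC spike-ins both turned negative, to −0.74 and −0.72, a shift of −0.73 for all genes. Under that scaling 0 members were higher and 15 lower by the same edgeR test, where 19 had an unadjusted p under 0.05, beside 144 higher and 5452 lower of all 12929 genes. All changes below are relative to other RNAs unless ERCC is named. The spike-ins could be used in batch A only, since batch B held at most 32 ERCC counts per oocyte. With ribosomal RNA features left out, 2 members were again higher and 6 lower, beside 1299 and 1423 of all 12911 genes. Without MII oocyte 1, 0 members were higher by edgeR (11 in either direction at an unadjusted p under 0.05) and 5 lower. In that run 863 of all 13113 genes were higher and 1246 lower. The count of higher members was also 0 without GV oocyte 3, where 15 had an unadjusted p under 0.05. There 975 of all 13167 genes were higher. The count was 1 without GV oocyte 5 or MII oocyte 2, beside 856 and 1131 of all genes higher. Without GV oocyte 5 or MII oocyte 4 the count of lower members was 4, beside 1137 and 1166 of all genes lower. Without MII oocyte 5 it was 7, beside 1290 of all genes lower. Without GV oocyte 6 the count of higher members was 3, beside 1111 of all genes higher.

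**Figure D1:**
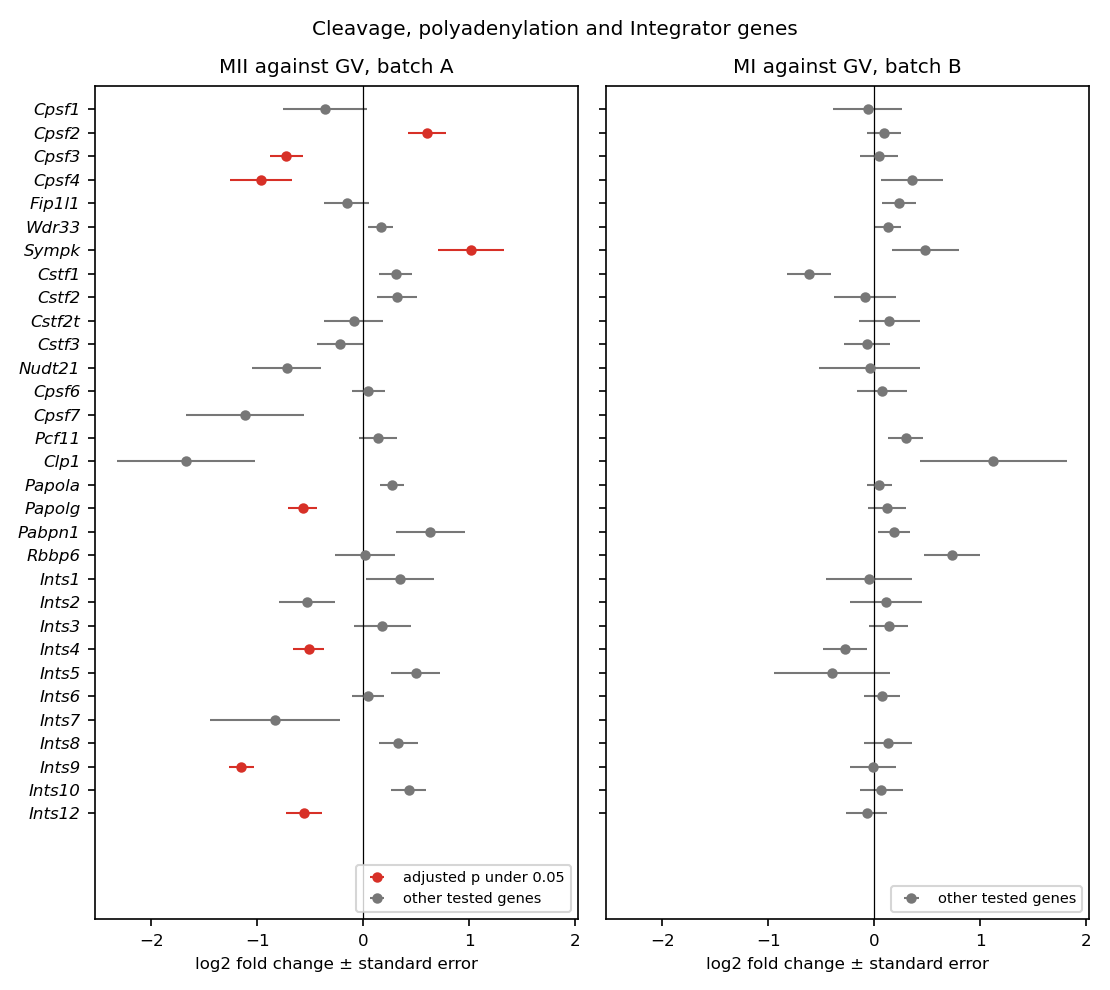
Log2 fold change of each of the 31 genes on the horizontal axis, with bars of 1 standard error, for 6 MII against 6 GV oocytes of batch A (left) and 15 MI against 10 GV oocytes of batch B (right), where Cpsf7 and Ints7 were not tested. Red points mark an adjusted p under 0.05, 2 to the right of 0 and 6 to the left in batch A and none in batch B, and with ERCC scaling the red point of Cpsf2 moves to −0.14.

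Within CPSF, the endonuclease and 1 RNA-binding subunit fell, while the partner of the endonuclease and the scaffold rose relative to other RNAs, of which the partner turns to −0.14 and the scaffold to 0.30 with ERCC scaling. Cpsf3 (ENSMUSG00000054309.9, chr12:21285391-21315056 in GRCm38), the endonuclease that cleaves the pre-mRNA, lay at 27.1 to 43.4 CPM in the 6 GV oocytes (median 35.2) and at 19.4 to 23.6 CPM in the 6 MII oocytes (median 20.5). Each of the 6 MII oocytes was below the lowest GV oocyte. Cpsf3 fell, at a log2 fold change of −0.72 (SE 0.16, adjusted p = 0.0044), and the call was lost only when all 37 oocytes were fitted with stage and batch as additive terms (−0.67, adjusted p = 0.0659). Cpsf3 shares 196 exon bases with Itgb1bp1 on the opposite strand, which unstranded reads cannot assign with certainty. Cpsf4 (ENSMUSG00000029625.16, chr5:145167213-145182041), the zinc-finger subunit that contacts the polyadenylation signal, had 14.7 to 47.1 CPM at GV (median 30.6) and 9.60 to 28.9 CPM at MII (median 13.6). The groups overlapped, with all 6 MII oocytes below the GV median and 4 of them below the lowest GV oocyte. Its log2 fold change of −0.96 (SE 0.29, adjusted p = 0.0283) no longer passed on HTSeq counts (−0.80, adjusted p = 0.0744) or in the additive fit (−0.92, adjusted p = 0.143). Leaving out GV oocyte 1, 3 or 6 or MII oocyte 3, 4 or 6 also ended the call of Cpsf4, with fold changes of −0.93 to −0.80 and adjusted p-values of 0.0505 to 0.0712.

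The rising CPSF genes were Cpsf2 and Sympk. Cpsf2 (ENSMUSG00000041781.9, chr12:101975988-102006424), the inactive homologue that pairs with the endonuclease, had 19.3 to 44.8 CPM at GV (median 34.5) and 40.4 to 56.0 CPM at MII (median 52.8). The groups met only at MII oocyte 6, the lowest at MII, and the other 5 MII oocytes were above the highest GV oocyte. Its log2 fold change was 0.61 (SE 0.18, adjusted p = 0.0256), but with ERCC scaling it turned to −0.14 (adjusted p = 0.677). The additive fit (0.65, adjusted p = 0.0529) and leaving out GV oocyte 3, MII oocyte 1 or MII oocyte 2 (0.56 to 0.59, adjusted p of 0.0513 to 0.0554) ended the call as well. Cpsf2 overlaps Ndufb1-ps on the opposite strand over 147 exon bases. Sympk (ENSMUSG00000023118.15, chr7:19024377-19054618), the symplekin scaffold that joins the cleavage subunits, had 11.8 to 21.6 CPM at GV (median 16.2) and 16.9 to 76.4 CPM at MII (median 25.1). Each MII oocyte exceeded the GV median, 4 of 6 exceeded the highest GV oocyte, and MII oocyte 1 stood far above the rest, the next being 38.1 CPM. Sympk rose, at a log2 fold change of 1.02 (SE 0.31, adjusted p = 0.0283). Without MII oocyte 1 it was 0.60 (adjusted p = 0.0729), and the call was also lost without GV oocyte 3 (0.99, adjusted p = 0.0541) or GV oocyte 5 (0.94, adjusted p = 0.066), on HTSeq counts (0.41, adjusted p = 0.217), in the additive fit (1.06, adjusted p = 0.0946) and with ERCC scaling (0.30, adjusted p = 0.4658). That oocyte also carried the high blood-marker sum, whose part in the Sympk value was not tested. The coding transcript Sympk-201 did not pass by edgeR's test (0.35, SE 0.25, adjusted p = 0.448). Sympk-204, annotated as a retained intron, made up 77.4% of the Sympk counts in MII oocyte 1. Its share was 17.8% to 41.3% in the other MII oocytes and 8.68% to 24.4% at GV. The remaining CPSF genes, Cpsf1, Fip1l1 and Wdr33, had fold changes of −0.36 to 0.17 with adjusted p-values of 0.343 to 0.65, and their GV and MII values overlapped.

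CstF binds GU-rich RNA downstream of the cleavage site. Its RNA-binding subunit is made from Cstf2 on the X chromosome and from Cstf2t, an intronless copy on chromosome 19. Cstf2 had 9.98 to 18.97 CPM at GV (median 13.9) and 14.0 to 20.4 CPM at MII (median 17.5), and Cstf2t 5.19 to 17.2 CPM at GV (median 10.1) and 5.20 to 13.4 CPM at MII (median 9.62). Both genes overlapped between the stages. For Cstf2 the log2 fold change was 0.32 (SE 0.19, adjusted p = 0.249) with all 6 MII oocytes above the GV median, but −0.45 with ERCC scaling, and that of Cstf2t −0.09 (SE 0.28, adjusted p = 0.854) with 4 of 6 below it. Per length the copies were close at GV in batch A, with 6.03 to 10.7 TPM for Cstf2 and 3.03 to 9.71 TPM for Cstf2t. The other subunits, Cstf1 and Cstf3, had fold changes of 0.31 and −0.22 and adjusted p-values of 0.171 and 0.524. Cstf2 shares 399 exon bases with Nox1 on the opposite strand.

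CFIm binds UGUA motifs upstream of the cleavage site and favours distal sites. Nudt21, its RNA-binding subunit, had 4.50 to 18.2 CPM at GV (median 8.70) and 3.81 to 8.43 CPM at MII (median 5.48). The MII oocytes were all below the GV median, but most stayed within the GV range. Its log2 fold change of −0.72 (SE 0.32) did not pass (adjusted p = 0.123). Cpsf6, the larger partner used in most tissues, was level at 17.2 to 24.8 CPM at GV (median 20.2) and 17.0 to 24.2 CPM at MII (median 21.7), with a log2 fold change of 0.05 (SE 0.15, adjusted p = 0.852). Cpsf7, the alternative partner, was scarce, with 0.611 to 3.09 CPM at GV (median 2.35) and 0.294 to 2.51 CPM at MII (median 0.602). Its log2 fold change of −1.11 (SE 0.56) had an adjusted p of 0.170, with 5 of 6 MII oocytes below the GV median. Cpsf6 exceeded Cpsf7 in every GV oocyte of batch A, at 14.7 to 21.1 TPM against 0.426 to 2.22 TPM. In batch B 3 of 10 GV oocytes and 1 of 15 MI oocytes had no Cpsf7 count, where 3 counts would equal 0.202 to 0.420 CPM, a limit for counting error only. Nudt21 shares sequence with the pseudogene Gm7488, and Cpsf7 shares 169 exon bases with Tmem216 on the opposite strand, so their counts are less certain.

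CFIIm consists of Pcf11, which also ends transcription, and Clp1, an RNA kinase. Pcf11 had 15.7 to 29.4 CPM at GV (median 25.7) and 21.8 to 36.7 CPM at MII (median 26.9). GV oocyte 4 was the low one, the other GV oocytes starting at 25.04 CPM, and the groups overlapped. The log2 fold change was 0.14 (SE 0.18, adjusted p = 0.612). Clp1 was scarce with 0.309 to 5.93 CPM at GV and 0.106 to 1.65 CPM at MII, and its log2 fold change of −1.67 (SE 0.65) did not pass (adjusted p = 0.0777). In batch B 3 of 10 GV oocytes had no Clp1 count, where 3 counts would equal 0.163 to 0.420 CPM.

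The nuclear poly(A) polymerases are made from a pair of genes. Papolg (ENSMUSG00000020273.13, chr11:23862646-23895253), the less abundant enzyme, had 54.0 to 70.4 CPM at GV (median 61.7) and 32.7 to 49.4 CPM at MII (median 43.9). All 6 MII oocytes were below the lowest GV oocyte. Papolg fell, at a log2 fold change of −0.57 (SE 0.14, adjusted p = 0.00929), and only the additive fit ended the call (−0.51, adjusted p = 0.165). Papolg shares 91 exon bases with the antisense gene Gm12061. Papola had 98.8 to 123 CPM at GV (median 112) and 119.6 to 151 CPM at MII (median 134). Although 5 of 6 MII oocytes were above the highest GV oocyte, its log2 fold change of 0.28 (SE 0.12) did not pass (adjusted p = 0.0988) and was −0.44 with ERCC scaling. Per length Papola exceeded Papolg in every oocyte of batch A, with medians of 118 and 40.2 TPM at GV and 137 and 25.6 TPM at MII. The accessory genes Pabpn1 and Rbbp6, the latter a ubiquitin ligase bound to the cleavage complex, had fold changes of 0.63 and 0.02 and adjusted p-values of 0.182 and 0.973.

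In Integrator 3 of 11 members fell and none rose by edgeR's test at MII, beside 11.5% of all genes lower and 9.06% higher. Here 5 members had an unadjusted p under 0.05, as did 4441 of all 12929 genes, and DESeq2 likewise called 0 of the Integrator members higher. The steepest was Ints9 (ENSMUSG00000021975.8, chr14:64950045-65039832), the inactive partner of the Integrator endonuclease. It lay at 143 to 184 CPM in the 6 GV oocytes (median 174) and at 67.6 to 82.6 CPM in the 6 MII oocytes (median 75.5). All MII oocytes were far below all GV oocytes. Ints9 fell to 0.451 of its GV level, a log2 fold change of −1.15 (SE 0.12, adjusted p = 1.05e-05). Its call held in 20 of 20 alternative settings, with fold changes of −1.87 (ERCC scaling) to −0.82 (HTSeq counts) and adjusted p-values of at most 0.00701.

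Ints4 and Ints12 fell less. Ints4 (ENSMUSG00000025133.9, chr7:97480956-97541395), which holds the Ints9 and Ints11 pair in the cleavage module, had 25.04 to 41.4 CPM at GV (median 34.5) and 21.9 to 26.2 CPM at MII (median 24.2). Its GV oocyte 2 lay within the MII range, and the other GV oocytes were above every MII oocyte. The log2 fold change was −0.51 (SE 0.15, adjusted p = 0.022). It was lost with no low-count filter (−0.54, adjusted p = 0.0801), on HTSeq counts (−0.41, adjusted p = 0.0829), in the additive fit (−0.46, adjusted p = 0.331) and without GV oocyte 5 (−0.45, adjusted p = 0.0544). Ints12 (ENSMUSG00000028016.9, chr3:133091840-133110988), a small subunit with a PHD finger, had 77.9 to 117 CPM at GV (median 94.3) and 50.4 to 84.1 CPM at MII (median 62.8). The ranges met at MII oocytes 2 and 3, and the other 4 MII oocytes were below the lowest GV oocyte. Its log2 fold change of −0.56 (SE 0.17, adjusted p = 0.0287) was lost in the additive fit (−0.49, adjusted p = 0.25). It was also lost without GV oocyte 4 or 5 or MII oocyte 1, 4 or 5, with fold changes of −0.51 to −0.49 and adjusted p-values of 0.0613 to 0.0704. Ints12 shares 100 exon bases with Gstcd on the opposite strand. The other Integrator genes, Ints1, Ints2, Ints3, Ints5, Ints6, Ints7, Ints8 and Ints10, had fold changes between −0.83 (Ints7) and 0.50 (Ints5) and adjusted p-values of 0.077 to 0.856. Ints8 overlaps the more abundant Ccne2 on the opposite strand over 609 exon bases, and Ints2 overlaps the antisense gene Brip1os over 512.

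**Figure D2:**
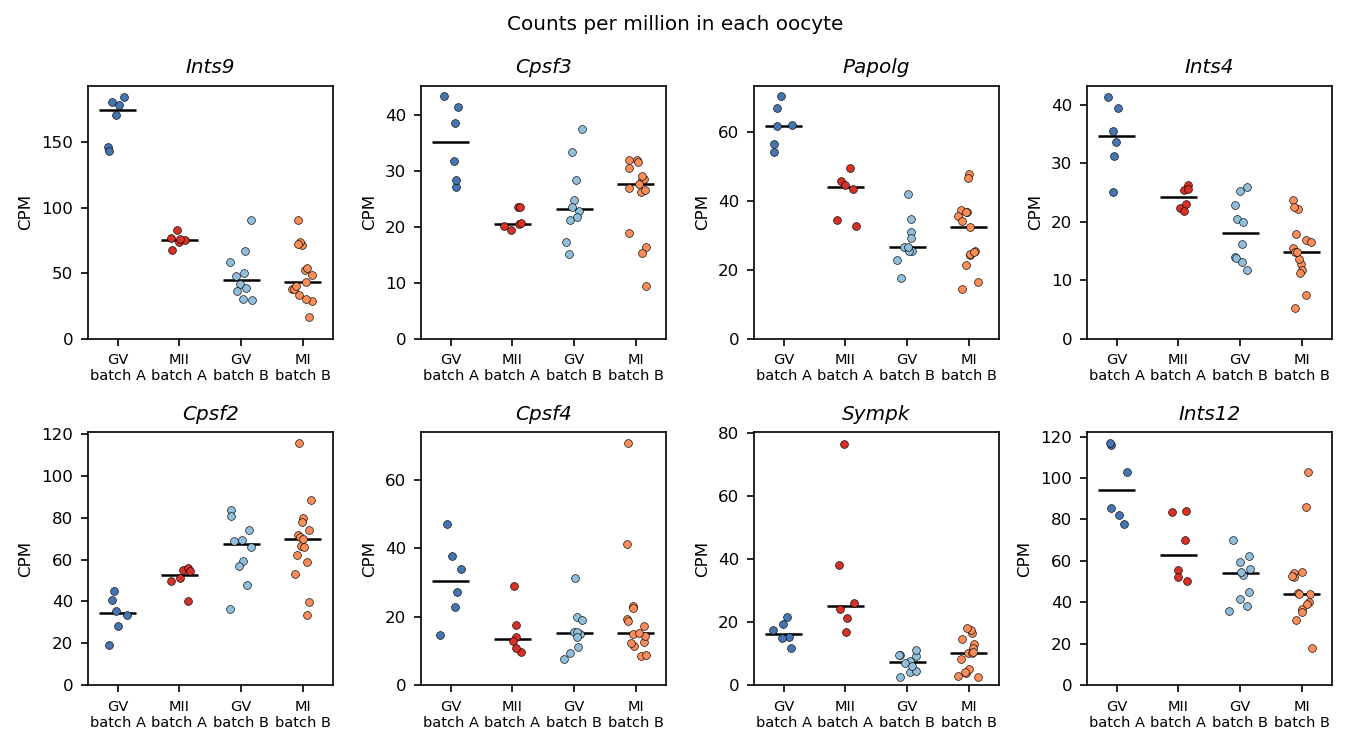
CPM (vertical axes) of the 8 genes that passed the test in batch A, with 1 point per oocyte and a line at the median, for 6 GV and 6 MII oocytes of batch A and 10 GV and 15 MI oocytes of batch B. Ints9 lies at 143 to 184 at GV and 67.6 to 82.6 at MII in batch A, Sympk reaches 76.4 in MII oocyte 1, and the rise of Cpsf2 turns to −0.14 (log2) with ERCC scaling.

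Batch B asked the same of the step from GV to MI. Of the 31 members 29 passed the low-count filter, Cpsf7 and Ints7 being too low. Cpsf7 had 0 to 0.657 CPM at GV (median 0.291) and 0 to 4.23 CPM at MI (median 1.04), with 9 of 15 MI oocytes above the highest GV oocyte. Without the low-count filter its change was 2.15 on the log2 scale (adjusted p = 0.103), and with DESeq2 2.18 (adjusted p = 0.0592), neither passing. None of the 29 passed edgeR's test, where 0.145% of all 12419 genes did. At an unadjusted p under 0.05 there were 2 members, beside 1371 of all 12419 genes, and DESeq2 and every other setting run also called 0. The members' median log2 fold change was 0.07 beside 0.02 for all genes. Among the 29 the lowest unadjusted p-values, chosen after they were seen, belonged to Cstf1 and Rbbp6. Cstf1, the WD-repeat subunit of CstF, had 12.8 to 47.1 CPM at GV (median 19.2) and 6.59 to 23.4 CPM at MI (median 15.4). The ranges overlapped widely, with 12 of 15 MI oocytes below the GV median and a log2 fold change of −0.61 (SE 0.21, adjusted p = 0.212). Rbbp6 had 6.23 to 22.5 CPM at GV (median 10.4) and 7.08 to 38.3 CPM at MI (median 16.7). Here 12 of 15 MI oocytes were above the GV median and the log2 fold change was 0.73 (SE 0.26, adjusted p = 0.238).

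The 8 genes that passed in batch A had fold changes of −0.28 (Ints4) to 0.48 (Sympk) between GV and MI, with adjusted p-values of 0.613 to 0.991. Ints9 lay at 29.1 to 90.3 CPM in the 10 GV oocytes (median 44.8) and at 16.7 to 90.3 CPM in the 15 MI oocytes (median 42.9). Stages were thus level for Ints9 in batch B, at a log2 fold change of −0.01 (SE 0.22, adjusted p = 0.991). Whether the MII and MI changes differ was tested directly over all 37 oocytes, each stage against the GV oocytes of its own batch. In this test, here and below, stage cannot be told apart from batch or collection, MI oocytes being cultured and MII oocytes taken from the oviduct. Ints9 was the 1 member of 31 that passed, where 5.46% of all genes did, with a difference of −1.07 on the log2 scale (SE 0.33, adjusted p = 0.0437). This call was lost on HTSeq counts (−1.03, adjusted p = 0.119) and without MII oocyte 1 of batch A (−1.03, adjusted p = 0.0835). The blood marker Hbb-bs also passed the test of the difference (5.40, SE 1.31, adjusted p = 0.00892). MII oocyte 1 carried the high blood-marker sum, whose part in the Ints9 call was not tested. Ints9 itself was 74.05 CPM in that oocyte, and 67.62 to 82.63 CPM in the other MII oocytes. At an unadjusted p under 0.05 there were 8 members, beside 2671 of all 15083 genes. Nearest to passing was Cstf1, opposite in direction to Ints9 (0.99, SE 0.32, adjusted p = 0.0552), followed by Cpsf7 (−3.21, SE 1.09, adjusted p = 0.0745). Clp1 had a difference of −2.72 (SE 1.13, adjusted p = 0.171), and Cpsf2, Cpsf3, Cpsf4 and Papolg had adjusted p-values of 0.121 to 0.232. DESeq2 called Ints9, Cstf1 (adjusted p = 0.0303) and Cpsf7 (0.0214), RLE scaling Ints9 and Cstf1 (0.0494), and a fit with no low-count filter Ints9 and Cpsf4 (0.0427).

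Transcript counts gave a finer view. The files list 220 transcripts of the 31 genes, of which 79 had a mean of at least 10 counts at GV or MII of batch A and 70 passed the filter. At MII 1 of these was higher, Sympk-204, where 3.49% of all 22461 transcripts tested were higher. Lower were 6, namely Ints9-201, Ints9-202, Cpsf3-201, Cpsf4-205, Papolg-201 and Ints12-201, where 5.81% of all transcripts were lower. The unadjusted p was under 0.05 for 17, beside 5438 of all 22461 transcripts. Between GV and MI 0 of 71 member transcripts passed, as for 0% of all 22717 transcripts with edgeR (1615 at an unadjusted p under 0.05, 6 of them of members), while DESeq2 called 199 of all transcripts and 0 of members. ERCC scaling was not run on transcripts.

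Ints9 has an annotated transcript that stops early. Ints9-201 (chr14:64950045-65039832, plus strand) is the coding transcript with 17 exons, and Ints9-202 (chr14:64950302-65010800) is annotated as a retained intron, with 8 exons and an end inside intron 8. Ints9-202 lay at 16.4 to 58.4 CPM in the GV oocytes of batch A (median 40.1) and at 0.428 to 2.52 CPM in the MII oocytes (median 0.728). The 6 MII values were far below the 6 GV values. Its log2 fold change was −5.19 (SE 0.48, adjusted p = 7.26e-05). Ints9-201 lay at 104.7 to 152 CPM at GV (median 134) and at 64.5 to 81.9 CPM at MII (median 74.0). It too separated the stages, but by less, at −0.82 (SE 0.11, adjusted p = 7.66e-04). As a share of the Ints9 counts, Ints9-202 made up 11.1% to 32.8% at GV and 0.597% to 3.75% at MII.

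That change in usage was tested with edgeR against the other transcripts of the same gene. Of 19 member genes tested in batch A, Ints9 was the 1 that passed, where 2.39% of all 5478 genes did. Its adjusted p was 1.63e-07 at the gene level, 1.03e-04 with limma and 1.47e-06 without MII oocyte 1. Among all genes limma called 418, where edgeR called 131. In batch B, added after Ints9-202 was seen, 0 of 19 member genes passed the edgeR usage test, where 4 of 5536 genes did, and limma was not run there. Ints9-202 lay at 3.45 to 14.3 CPM in the 10 GV oocytes of that batch (median 5.80) and at 0 to 6.38 CPM in the 15 MI oocytes (median 1.49). The value of 0 is that of MI oocyte 15, the shallowest library. Of the MI oocytes 12 were below the lowest GV oocyte, with a log2 fold change of −1.60 (SE 0.51) that did not pass among all transcripts (adjusted p = 0.402). Its share of the Ints9 counts was 5.83% to 23.9% at GV and 0% to 20.8% at MI. Only 1.58% of the bases of Ints9-202 lie in stretches of 50 bases that also occur in other genes.

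Sympk shows a comparable annotated form with the opposite direction. Sympk-204 (chr7:19024423-19035110) is annotated as a retained intron, has 5 exons where the coding Sympk-201 has 27, and ends inside intron 6. In batch A it lay at 1.63 to 3.44 CPM at GV (median 2.25) and at 3.88 to 61.0 CPM at MII (median 6.27). Every MII oocyte was above every GV oocyte, and MII oocyte 1 was the far highest, the next being 15.8 CPM. The log2 fold change was 2.75 (SE 0.68, adjusted p = 0.0233) and, without MII oocyte 1, 1.61 (adjusted p = 0.04). Sympk-201 lay at 7.31 to 17.7 CPM at GV (median 11.7) and 11.3 to 18.7 CPM at MII (median 14.8). Its stages overlapped, with a log2 fold change of 0.35 (SE 0.25, adjusted p = 0.448). The usage test of Sympk did not pass (gene-level adjusted p = 0.112, limma 0.184). Of the Sympk-204 bases 15.2% lie in stretches shared with other genes, so its counts are less certain. The same share was 1.58% for Ints9-202, and for both transcripts sequence shared within the same gene was not counted. In batch B Sympk-204 lay at 1.52 to 5.76 CPM at GV (median 2.82) and 0.513 to 16.6 CPM at MI (median 6.74), with 9 of 15 MI oocytes above the highest GV oocyte (1.16, SE 0.44, adjusted p = 0.530).

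**Figure D3:**
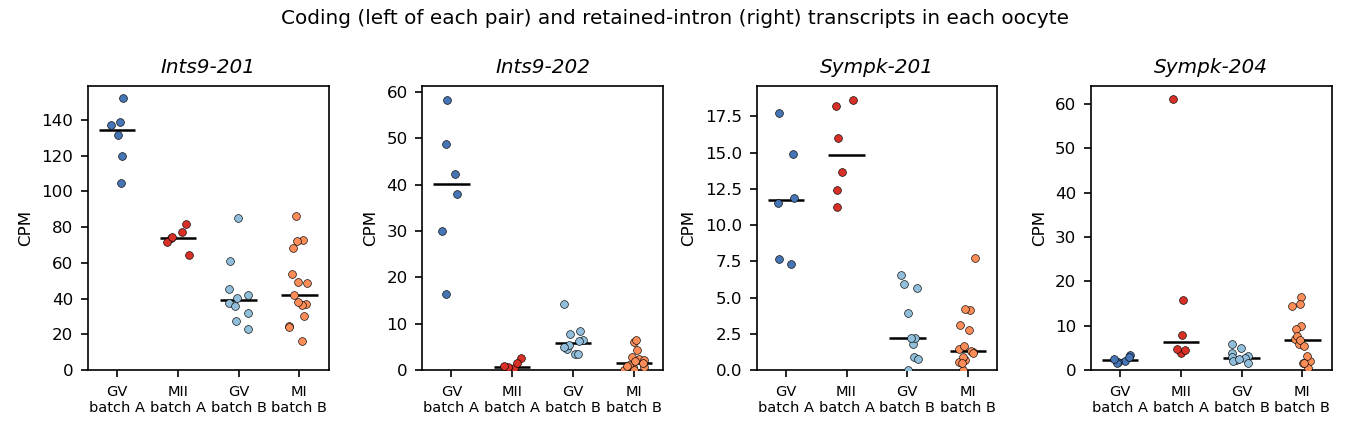
CPM (vertical axes) of the coding transcripts Ints9-201 and Sympk-201 and the retained-intron transcripts Ints9-202 and Sympk-204, with 1 point per oocyte and a line at the median in the GV and MII oocytes of batch A and the GV and MI oocytes of batch B. Ints9-202 spans 16.4 to 58.4 at GV and 0.428 to 2.52 at MII in batch A, and Sympk-204 reaches 61.0 in MII oocyte 1.

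The other changed transcripts were the main coding forms of their genes. Cpsf3-201 lay at 26.8 to 42.9 CPM at GV and 18.8 to 22.6 CPM at MII, with no overlap (−0.77, SE 0.15, adjusted p = 0.0075). Papolg-201 lay at 54.4 to 70.1 CPM at GV and 32.3 to 48.6 CPM at MII, also with no overlap (−0.61, SE 0.14, adjusted p = 0.0142). Each made up at least 90.99% of the counts of its gene in every oocyte of batch A. Cpsf4-205 had 11.7 to 40.9 CPM at GV and 6.12 to 16.3 CPM at MII, with 4 of 6 MII oocytes below the lowest GV oocyte (−1.25, SE 0.34, adjusted p = 0.0357). Ints12-201 had 78.2 to 121 CPM at GV and 50.7 to 82.9 CPM at MII, again with 4 of 6 below (−0.58, SE 0.17, adjusted p = 0.0487). With no low-count filter the calls of Cpsf3-201 (adjusted p = 0.0718), Papolg-201 (0.12) and Ints12-201 (0.15) were lost. Ints12-201 was also lost with DESeq2 (0.0895) and without MII oocyte 1 (−0.53, adjusted p = 0.106).

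Transcript ends are shown for the coding and retained-intron forms of Ints9 and Sympk, which end in different places, with a polyadenylation signal in capitals where a script found AATAAA or, failing that, ATTAAA on the transcript strand. Sequences are the last 30 bases of GENCODE M21 transcripts on GRCm38, from chr14:65039803-65039832 and chr14:65010771-65010800 for Ints9 and chr7:19054588-19054617 and chr7:19035081-19035110 for Sympk, all on the plus strand.
Ints9-201: ttgctaaaAATAAAcattatttttataaaa
Ints9-202: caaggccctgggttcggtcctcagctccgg
Sympk-201: aaagagggcgtagctgcgccaggttagaaa
Sympk-204: ttggaagactctgactcaaaaaagaatagc
The ends of Ints9-202, Sympk-201 and Sympk-204 hold neither hexamer in this window. Among the most abundant coding transcripts of the 31 members, 16 (51.6%) held AATAAA and 4 (12.9%) ATTAAA alone in the last 30 bases, beside 43.0% and 10.3% of all 48294 protein-coding transcripts. A match is a description of the annotated end and no measure of its use.

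Other genes that work with these complexes were followed in batch A as lists, whose counts stand beside 9.06% of all genes higher and 11.5% lower. Of 8 further Integrator and SOSS genes 7 were tested, 1 rose and 1 fell, and the median log2 fold change was −0.43. Ints11, the Integrator endonuclease itself, had 9.40 to 17.9 CPM at GV and 3.40 to 8.22 CPM at MII. The 6 MII oocytes were all below the GV oocytes (−0.99, SE 0.26, adjusted p = 0.014). Ints4, Ints9 and Ints11 form the cleavage module and were each lower at MII, but the module as a whole was not tested. Among them only Ints9 kept its call in 20 of 20 alternative settings. The call of Ints11 was lost in the additive fit (adjusted p = 0.255), as was that of Ints14. Ints14, of the module with Ints10 and Ints13, had 20.4 to 29.8 CPM at GV and 34.4 to 47.8 CPM at MII with no overlap (0.73, SE 0.15, adjusted p = 0.0029), but −0.03 with ERCC scaling. Of 7 genes of histone pre-mRNA processing, which shares the CPSF endonuclease, 1 rose and 2 fell, with a median of 0.11. Casp8ap2, a bridge to that endonuclease, had 93.1 to 147 CPM at GV and 149.6 to 193 CPM at MII with no overlap (0.45, SE 0.13, adjusted p = 0.0215), but −0.30 with ERCC scaling. Zfp473, a factor bound to the U7 particle, had 22.3 to 43.9 CPM at GV and 11.7 to 24.3 CPM at MII, with 5 of 6 MII oocytes below the lowest GV oocyte (−1.01, SE 0.21, adjusted p = 0.00357). Lsm10, a ring protein of the U7 particle, had 74.3 to 138 CPM at GV and 40.0 to 86.3 CPM at MII, with 4 of 6 below (−0.73, SE 0.22, adjusted p = 0.0258). Leaving out GV oocyte 4 or 5 or MII oocyte 1, 4 or 5 ended the call of Lsm10 (−0.66 to −0.63, adjusted p of 0.0526 to 0.0667), as did HTSeq counts (−0.50, adjusted p = 0.107) and the additive fit (−0.66, adjusted p = 0.208). The additive fit also ended the calls of Zfp473 (adjusted p = 0.169) and Casp8ap2 (0.0742), and Casp8ap2 was lost on HTSeq counts (0.0561) and with no low-count filter (0.123).

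Of 19 genes of transcription termination and the polymerase tail 18 were tested, 2 rose and none fell by edgeR's test, where 6 had an unadjusted p under 0.05, and the median log2 fold change was 0.28. Ppp1cb, a catalytic subunit of protein phosphatase 1, had 24.0 to 48.8 CPM at GV and 45.5 to 70.2 CPM at MII, with 5 of 6 MII oocytes above the highest GV oocyte (0.76, SE 0.16, adjusted p = 0.0047). Xrn2, the exonuclease that degrades RNA downstream of the cleavage site, had 59.0 to 74.6 CPM at GV and 76.9 to 111 CPM at MII with no overlap (0.50, SE 0.13, adjusted p = 0.0125). With ERCC scaling the change of Ppp1cb was 0.04 (adjusted p = 0.905) and that of Xrn2 −0.23, and with no low-count filter Xrn2 had an adjusted p of 0.0762. Of 12 genes of small nuclear RNA transcription and export 1 rose and 1 fell, with a median of −0.14. Ice1, of the little elongation complex, had 173 to 355 CPM at GV and 352 to 548 CPM at MII, with 5 of 6 above the highest GV oocyte (0.73, SE 0.20, adjusted p = 0.0167), but −0.06 with ERCC scaling. Snapc5, of the complex that binds small nuclear RNA promoters, had 13.7 to 33.9 CPM at GV and 8.50 to 13.1 CPM at MII with no overlap (−1.002, SE 0.21, adjusted p = 0.00406).

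Of 12 genes of cytoplasmic polyadenylation and deadenylation 4 rose and 1 fell, with a median log2 fold change of 0.25, and the rises named below turn negative with ERCC scaling. Cpeb1, the protein that recruits the polyadenylation machinery to stored messenger RNAs, had 377 to 582 CPM at GV (median 426) and 202 to 265 CPM at MII (median 229). All 6 MII oocytes were below all GV oocytes (−0.96, SE 0.13, adjusted p = 1.29e-04). Between GV and MI in batch B Cpeb1 was level, at 241 to 326 CPM and 249.7 to 411 CPM, and the MII and MI changes differed (−1.01, SE 0.16, adjusted p = 0.00009). They also differed for Cnot7, in the opposite direction (0.73, SE 0.16, adjusted p = 0.00457). Cpeb4, a relative of Cpeb1, had 56.5 to 87.9 CPM at GV and 82.5 to 106 CPM at MII, with 5 of 6 MII oocytes above the highest GV oocyte (0.53, SE 0.13, adjusted p = 0.0111). The deadenylase gene Cnot7 had 267 to 383 CPM at GV and 368 to 492 CPM at MII, with 4 of 6 above (0.47, SE 0.13, adjusted p = 0.0172), and its partner gene Cnot6l 250.2 to 401 CPM at GV and 428 to 507 CPM at MII, with no overlap (0.41, SE 0.13, adjusted p = 0.0327). With ERCC scaling all 3 turned negative, Cpeb4 to −0.24, Cnot7 to −0.24 and Cnot6l to −0.34. With no low-count filter the 3 calls were also lost (adjusted p of 0.0571, 0.104 and 0.165), and Cnot6l was lost in the additive fit (0.0615) and without GV oocyte 5 or MII oocyte 1, 3, 4 or 5 (0.39 to 0.41, adjusted p of 0.0519 to 0.0651).

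Among 6 paralogues and related polymerases 5 were tested, 1 fell and none rose by edgeR's test, where 4 had an unadjusted p under 0.05. Cpsf4l, a close relative of Cpsf4, had 389 to 675 CPM at GV (median 463) and 152 to 263 CPM at MII (median 194). All 6 MII oocytes were below all GV oocytes (−1.35, SE 0.18, adjusted p = 1.16e-04), and the MII and MI changes differed (−1.41, SE 0.31, adjusted p = 0.00379). Per length Cpsf4l exceeded Cpsf4 many fold at GV in batch A, with 750.2 to 1175 TPM against 21.3 to 71.0 TPM. Of the 12 oocyte markers 7 also fell from GV to MII, where 11.5% of all genes were lower. The 3 with the smallest adjusted p coat the oocyte. Zp3 fell from 1654 to 3541 CPM at GV to 342 to 736 CPM at MII (−2.21, SE 0.22, adjusted p = 1.05e-05), Zp1 changed by −1.39 (SE 0.18, adjusted p = 7.69e-05) and Zp2 by −2.14 (SE 0.29, adjusted p = 1.11e-04). In each of these the stages did not overlap. Between GV and MI in batch B 0 genes of the pathway lists passed with edgeR, where 4 had an unadjusted p under 0.05, nor did any with DESeq2. In the same edgeR test 1 cumulus and granulosa marker passed, the gap junction gene Gja1, which fell from 0.371 to 10.2 CPM at GV to 0 to 0.962 CPM at MI (−3.42, SE 0.62, adjusted p = 0.0174), 4 MI oocytes being at 0. On HTSeq counts 0 of these markers passed (2 at an unadjusted p under 0.05), and DESeq2 and the additive fit each called 2.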

How the data were processed

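Trim Galore 0.6.4, STAR 2.7.6a, HTSeq 0.12.4 and RSEM 1.3.1 were run by the authors, who deposited integer read counts per gene (HTSeq) and expected counts per gene and per transcript (RSEM). The expected counts as deposited were used, the HTSeq counts as an alternative, and names and coordinates came from GENCODE M21 on GRCm38, where the authors used release VM20. In R 4.3.3, edgeR 4.0.16 (TMM scaling, filterByExpr, quasi-likelihood test, Benjamini-Hochberg adjustment) compared stages within a batch, with DESeq2 1.42.0 and limma 3.58.1 as alternatives. CPM uses the TMM-scaled library within a batch, and TPM was computed here from transcript expected counts and annotated lengths. Tests were run on simulated counts first, where the usage test made more false calls than its nominal level. Beside it in batch A stands limma as a second method, not a stricter one, with 418 genes called against 131. Python 3.11.15, numpy 2.4.6, pandas 2.3.3 and matplotlib 3.10.9 handled sequences and plots.

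The members and lists were chosen with earlier results of these data known. Named in full are members that pass or have a passing transcript, Cstf2, Cstf2t, Cpsf6, Cpsf7, Papola, Papolg, Pcf11 and Nudt21, and per list at most 3 higher and 3 lower passing genes by adjusted p, plus Cpeb1 and Ints11.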

Additional observations from a re-analysis of the deposited data

Results flagged for a closer look

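Of 126 groups of values examined for an oocyte far from the others of its group, 9 held one (7.14%), and chance alone gives about 1 in 20 groups. Only the groups of 6 and of 10 oocytes were examined, not the 15 MI oocytes. In batch A, Pcf11 was 15.69 CPM in GV oocyte 4 (other GV oocytes 25.04 to 29.42), and MII oocyte 1 stood apart from the other MII oocytes in Sympk (76.43 CPM against 16.89 to 38.06), in Sympk-204 (61.04 CPM against 3.883 to 15.84) and in genes with a count (29518 against 19273 to 22244). In batch B, GV oocyte 7 was high in Cpsf4 (31.49 CPM against 7.694 to 19.82) and Ints5 (6.45 CPM against 0.5684 to 2.501), GV oocyte 9 in Cstf2t (12.16 CPM against 1.759 to 6.884) and Ints9-202 (14.34 CPM against 3.446 to 8.383), and GV oocyte 1 in Clp1 (2.339 CPM against 0 to 1.246). The change of Ints9 from GV to MII in batch A differed from that to MI in batch B, by −1.07 on the log2 scale (adjusted p = 0.0437, edgeR). Stage cannot be told apart from batch or collection there. The call was lost on HTSeq counts (adjusted p = 0.119) and without MII oocyte 1 (0.0835).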

How the results depend on the processing

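The oocytes are taken as independent because no females are named, the stages MI and MII were collected in different batches, and unstranded reads leave genes with an antisense partner uncertain. Depth limits the scarce members (Cpsf7, Clp1, Ints7) and MI oocyte 15. Ints9, Cpeb1, Cpsf4l, Snapc5, Zp1, Zp2 and Zp3 kept their direction and their side of the threshold in 20 of 20 alternatives of the GV to MII test. For the changes below the cause was not tested, except that fewer oocytes were used where some were left out.

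GV against MII in batch A gave 2 members higher and 6 lower, and 1172 genes higher and 1490 lower. HTSeq counts gave 1 member higher and 4 lower, and 899 genes higher and 1178 lower. The additive fit of all 37 oocytes gave 0 members higher and 1 lower, and 623 genes higher and 611 lower. ERCC scaling gave 0 members higher and 15 lower, and 144 genes higher and 5452 lower. A fold change over 2 as well left 1 member higher and 1 lower, and 278 genes higher and 817 lower. Leaving out 1 oocyte at a time gave 0 to 3 members higher and 4 to 7 lower, and 856 to 1131 genes higher and 1137 to 1447 lower. With ERCC scaling Cpsf2 turned to −0.14, Ints14 to −0.0285, Casp8ap2 to −0.30, Xrn2 to −0.23, Ice1 to −0.0585, Cpeb4 to −0.24, Cnot7 to −0.24 and Cnot6l to −0.34.

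GV against MI in batch B gave 18 genes, and 44 with no low-count filter, 224 with DESeq2, 0 with HTSeq counts, 149 in the additive fit, 39 without MI oocytes 4, 8 and 9, 0 without them on HTSeq counts and 24 without MI oocyte 15. The difference between the MII and MI changes gave 1 member and 823 genes. It gave 2 members and 1600 genes with no low-count filter, 3 and 1284 with DESeq2, 0 and 319 with HTSeq counts, and 0 and 512 without MII oocyte 1, while RLE scaling gave 2 members.

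Transcripts in batch A gave 1 of members higher and 6 lower, and 785 of all higher and 1304 lower. DESeq2 gave 2 of members higher and 6 lower, and 1073 of all higher and 1734 lower. Leaving out MII oocyte 1 gave 2 of members higher and 5 lower, and 531 of all higher and 980 lower. No low-count filter gave 1 of members higher and 3 lower, and 507 of all higher and 954 lower. In batch B 0 transcripts passed with edgeR (1615 at an unadjusted p under 0.05), 2 with no low-count filter and 199 with DESeq2. The usage test called 131 genes in batch A, and limma 418.

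The columns of a batch share replicate numbers. A fit with the number as a block gave 0 members higher and 4 lower in batch A, and 724 genes higher and 1004 lower. It gave 0 genes in batch B. For transcripts of batch A the same fit gave 0 of members higher and 2 lower, and 171 of all higher and 311 lower. Correlations between columns of 1 number were −0.327 to 0.341 in batch A (1 of 6 pairs over 0.1, 1 best with its own number). In batch B they were −0.146 to 0.107 (1 of 10 pairs over 0.1, 0 best). So few pairs cannot show whether oocytes of 1 number share an animal or a collection, which the labels do not say.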
